A study of Mus musculus with 5 samples.

Results

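The 42 genes described here act in the G2 phase and in mitosis. They encode the kinases and cyclins of mitotic entry, the spindle checkpoint, the kinetochore, the spindle motors and the machinery of cytokinesis. The names were chosen by function, with earlier results of these data known, so counts over the list are descriptions. Each gene was read by the probe set with a single gene symbol and the highest mean signal over the 3 treatment groups. All 42 had such a probe set among the 18193 genes with one, and all 42 lay above the minimum mean signal of 47.4 that left 10852 genes for testing. The arrays came from B9, a line of mouse cutaneous squamous cell carcinoma, and every group carried its HRAS-Q61L genotype. The cells were kept for 17 h with DMSO vehicle (1 array), with 1 µM PLX4032, known as vemurafenib (2 arrays labelled as biological replicates), or with 1 µM PLX7904 (2 such arrays). Both compounds are BRAF inhibitors, and the study set their effects on this line side by side. With 1 DMSO array, the spread of that group was not measured and was taken from the 4 treated arrays, so the number of arrays limits the precision of every comparison below. Whether the replicates were separate cultures is not stated, and the p-values measure only the spread between these arrays. The labels call the vehicle 0.2% DMSO, while the volume of compound stock they state, 2.4 µL in 12 mL, is 0.02% of the medium.

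Cells pass from G2 into mitosis when cyclin-bound Cdk1 becomes active. The spindle then attaches to the kinetochores, and the spindle checkpoint holds back the anaphase-promoting complex (APC/C), a ubiquitin ligase, until every chromosome is attached. RNA of many of these genes is made mainly in G2 and mitosis, so that their levels in bulk RNA rise and fall with the share of dividing cells. In mammals this wave of transcription is run by the DREAM and MuvB complexes with B-Myb and FoxM1, acting at CHR elements and at CCAAT boxes that bind NF-Y.

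The mitosis genes were lower on the vemurafenib arrays than on the others. Against DMSO, 25 of the 42 fell and none rose (limma, adjusted p under 0.05), where 5.21% of all genes tested were called lower and 5.43% higher. Against PLX7904, 35 of the 42 fell and none rose, where 6.87% of all genes were called lower and 6.43% higher. At an unadjusted p under 0.05 there were 34 lower against DMSO, 41 lower against PLX7904 and 0 higher in either, where all genes gave 1565 lower and 1245 higher against DMSO and 1664 and 1299 against PLX7904. The step was modest. The median of the 42 was 1.32-fold lower than in DMSO and 1.36-fold lower than with PLX7904, and no gene was lower by 2-fold or more in either comparison. On the log2 scale, all values being log2(signal + 3.34), the median change was -0.40 against DMSO and -0.44 against PLX7904, beside medians of -0.05 and -0.04 over all genes tested.

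On single arrays the pattern ran through nearly the whole list. Both vemurafenib arrays read below both PLX7904 arrays for 42 of 42 genes, an order found for 32.2% of all genes tested. Both also read below the DMSO array for 41 of 42, against 47.7% of all genes, the exception being Ttk. For 41 genes the vemurafenib arrays were the lowest of all, against 27.6% of genes tested. In bulk RNA, fewer cells in G2 and mitosis and less RNA per cell cannot be told apart. The genes were bright, with mean signals from 256 to 11226, and the vemurafenib replicates differed by a median of 0.07 and the PLX7904 replicates by 0.10 on the log2 scale.

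The counts of calls depended on how the spread was modelled. Without the intensity trend in limma's estimate of the spread, none of the 42 passed in any comparison. That setting called 17 genes lower and 26 higher of all 10852 against DMSO, and 14 and 21 against PLX7904. Leaving out vemurafenib replicate 1 reduced the 25 genes against DMSO to 15, and centring each array on its median reduced them to 7. Centring moved the median of all genes from -0.05 to 0.11 and the share of higher calls from 51.0% to 83.6% against DMSO, and from 48.4% to 71.6% against PLX7904. Centring shifts every gene of an array alike, and it turned the uncalled changes of Cdk1 (0.04), Mad2l1 (0.05), Aurka (0.07) and Ube2c (0.09) against DMSO above 0.

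**Figure D1:**
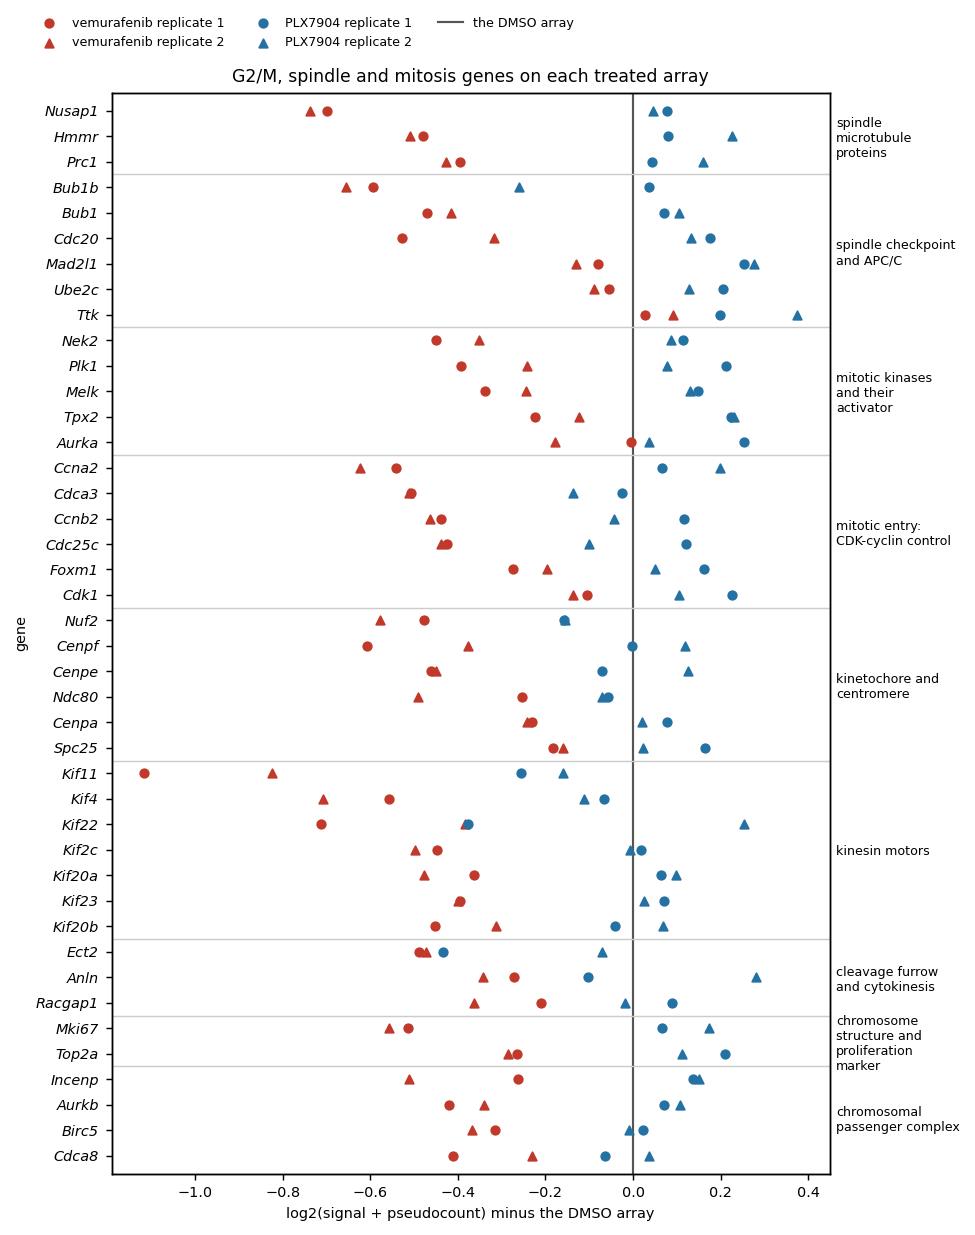
Signal of each of the 42 genes on each treated array, as log2(signal + pseudocount) minus the DMSO array (x axis), with the genes grouped by role (y axis); each point is 1 array, and the line at 0 is the DMSO array. The vemurafenib points lie left of 0 for 41 of 42 genes and left of both PLX7904 points for all 42, while the PLX7904 points lie on either side of 0.

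The promoters of these genes were searched for the letters of the elements named above. As the genes were named by function, the shares of letters describe the list and not its change with vemurafenib. RefSeq windows on GRCm38.p6, from 250 bases before to 50 after the annotated start, were matched by symbol for 35 of the 42 genes. They gave 37 windows, with Ect2 and Prc1 having 2 overlapping windows each. Not matched were Aurkb, Kif20a, Ccna2, Cdc25c, Incenp, Tpx2 and Foxm1. The letters searched on both strands were TTTGAA or TTTAAA for the CHR element and CCAAT for the NF-Y box. A CHR match can share an end base with a box on the opposite strand, as it does in Cdca8. The 5 windows below, shown to 30 bases after the start, include the genes with the lowest change in each comparison (Kif11 and Nusap1), windows with several boxes that changed by different amounts (Ccnb2, Hmmr and Ube2c), and one with no match at all (Nusap1). They run 5′ to 3′ on the strand of the gene, and capitals mark matches to either set of letters, on either strand.
Kif11, chr19:37376132-37376411, plus strand: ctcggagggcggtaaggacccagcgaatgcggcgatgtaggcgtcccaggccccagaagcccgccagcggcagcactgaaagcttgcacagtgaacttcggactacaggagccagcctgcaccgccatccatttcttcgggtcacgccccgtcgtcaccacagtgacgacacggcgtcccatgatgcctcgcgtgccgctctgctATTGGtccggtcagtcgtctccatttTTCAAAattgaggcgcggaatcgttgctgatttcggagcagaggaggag
Nusap1, chr2:119618048-119618327, plus strand: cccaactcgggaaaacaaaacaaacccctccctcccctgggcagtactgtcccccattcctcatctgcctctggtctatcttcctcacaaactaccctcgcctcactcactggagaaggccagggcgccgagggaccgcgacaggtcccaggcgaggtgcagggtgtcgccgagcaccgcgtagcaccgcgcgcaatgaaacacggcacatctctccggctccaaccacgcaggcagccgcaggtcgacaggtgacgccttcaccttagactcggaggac
Ccnb2, chr9:70421525-70421804, minus strand: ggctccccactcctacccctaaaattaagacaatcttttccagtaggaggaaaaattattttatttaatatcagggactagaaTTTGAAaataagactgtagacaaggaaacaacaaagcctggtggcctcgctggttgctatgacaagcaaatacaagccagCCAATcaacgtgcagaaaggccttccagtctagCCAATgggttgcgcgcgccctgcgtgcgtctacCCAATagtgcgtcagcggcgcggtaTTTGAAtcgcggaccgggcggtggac
Hmmr, chr11:40733408-40733687, minus strand: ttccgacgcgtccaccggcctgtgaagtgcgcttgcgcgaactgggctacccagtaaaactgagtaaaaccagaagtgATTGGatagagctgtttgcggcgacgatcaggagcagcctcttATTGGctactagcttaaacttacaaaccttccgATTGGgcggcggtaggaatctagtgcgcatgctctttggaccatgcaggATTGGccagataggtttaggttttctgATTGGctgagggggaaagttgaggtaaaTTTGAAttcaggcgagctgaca
Ube2c, chr2:164769679-164769958, plus strand: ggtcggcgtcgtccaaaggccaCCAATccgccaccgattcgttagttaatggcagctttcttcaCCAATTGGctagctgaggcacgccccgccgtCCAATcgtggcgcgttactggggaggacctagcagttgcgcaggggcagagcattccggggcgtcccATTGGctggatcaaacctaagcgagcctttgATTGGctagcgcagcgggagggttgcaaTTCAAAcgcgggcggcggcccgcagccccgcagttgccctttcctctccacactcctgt
With the start as base 1 and bases before it counted as negative, the CHR letters of Kif11 began at base -19 and those of Hmmr at base 9. In Ccnb2 they began at bases -167 and 5, the latter downstream of 3 CCAAT boxes. Ube2c held 6 boxes and 1 CHR match. Its boxes at bases -186 and -183 lay on opposite strands and shared bases, so they form 1 capitalised stretch. Nusap1 held none of the letters, as did Melk, Nuf2 and Mad2l1 among the 35 genes. Taken over all windows of the list, 31 of 37 (83.8%) held the CHR letters, beside 27.6% of 32851 RefSeq promoters of the same length. CCAAT was found in 28 of 37 (75.7%), beside 37.4% of all promoters, and at least 2 boxes in 20 (54.1%), beside 11.7%. Both elements occurred in 26 windows (70.3%), beside 10.7%. A CHR match within 50 bases of the start was present in 28 windows (75.7%), beside 8.28% of all promoters. The matches did not sort the genes by size of change. The median log2 change of the 24 genes with both kinds of letters was -0.42 against DMSO and -0.45 against PLX7904, and that of the 11 genes lacking at least 1 kind was -0.38 and -0.40. These are matches of letters, not measured sites, and base composition was not matched between the windows.

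**Figure D2:**
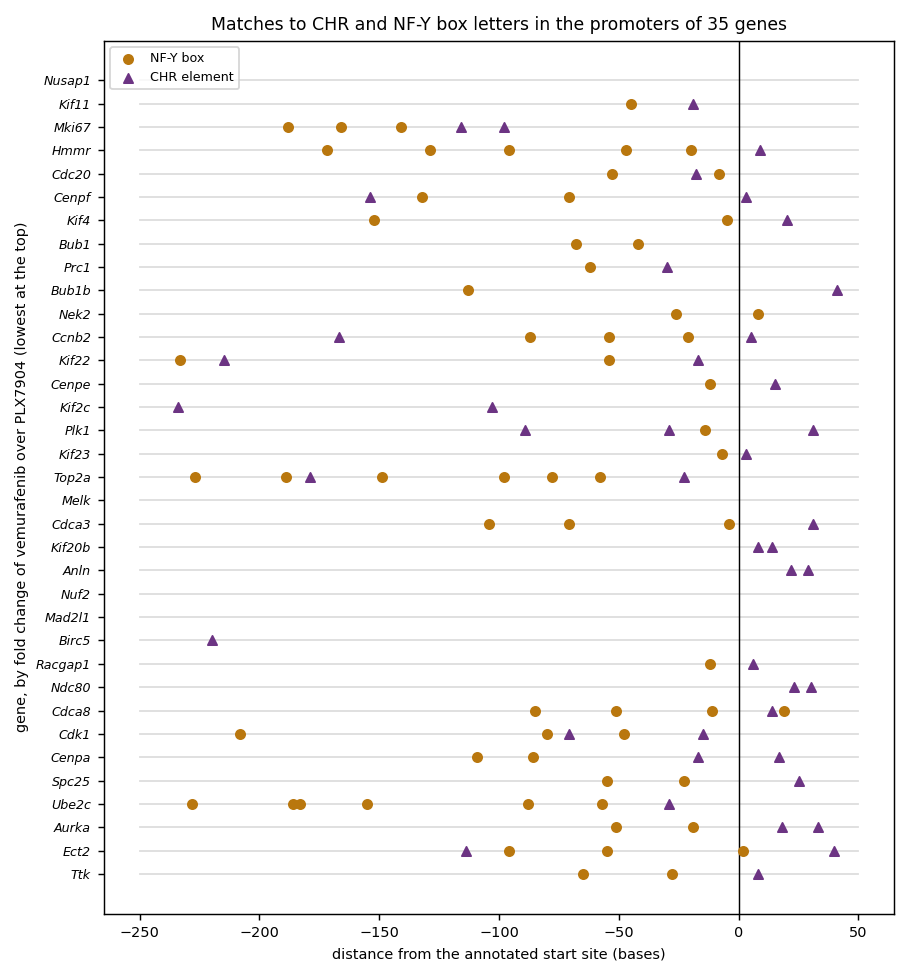
Position of each match to the CHR letters (triangles) and to CCAAT (circles) in bases from the annotated start (x axis), for the 35 genes with a RefSeq promoter, sorted by log2 fold change of vemurafenib over PLX7904 with the lowest at the top (y axis); of genes with 2 windows, the window with the higher coordinate is drawn. Matches to the CHR letters gather within 50 bases of the start (34 of 47 in all windows), and the windows of Nusap1, Bub1, Nek2, Melk, Nuf2 and Mad2l1 have none.

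The cyclins of mitotic entry fell with vemurafenib. Of the 6 genes of this role, 3 fell against DMSO (Ccna2, Ccnb2 and Cdca3) and 5 against PLX7904, with a median log2 change of -0.44 in both. Ccna2, the A-type cyclin of S phase and G2, read 3351 on the DMSO array, 2303 and 2174 on the vemurafenib arrays and 3509 and 3845 on the PLX7904 arrays. It was 1.5-fold lower than in DMSO (95% interval 1.29 to 1.74, adjusted p = 0.00456) and 1.64-fold lower than with PLX7904 (1.45 to 1.85, adjusted p = 0.000352). Its vemurafenib arrays stood well apart from the other 3, which lay close together. A second Ccna2 probe set, with a mean signal of 2796 beside 3089, gave smaller changes in the fit over all probe sets. It was not called against DMSO (log2 change -0.25, limma, adjusted p = 0.131) and was called against PLX7904 (-0.36, adjusted p = 0.0151). Ccnb2, a B-type cyclin that partners Cdk1, read 2050 with DMSO, 1513 and 1485 with vemurafenib and 2224 and 1990 with PLX7904. The DMSO value fell between the PLX7904 replicates, and the decrease was 1.37-fold (adjusted p = 0.0232) and 1.40-fold (adjusted p = 0.00505) against DMSO and PLX7904. Cdca3, which helps to remove the Cdk1 inhibitor Wee1, read 4283 with DMSO, 3012 and 3005 with vemurafenib and 4210 and 3897 with PLX7904. Its vemurafenib replicates nearly coincided, 1.42-fold below DMSO (adjusted p = 0.00575).

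Cdk1 itself, the kinase that drives entry, read 9606 with DMSO, 8930 and 8728 with vemurafenib and 11235 and 10328 with PLX7904. The vemurafenib arrays were only slightly below DMSO (log2 change -0.12, SE 0.08, adjusted p = 0.351), and the gene fell by 1.22-fold against PLX7904 (adjusted p = 0.0131), whose arrays both lay above DMSO. Cdc25c, the phosphatase that activates Cdk1, read 439 with DMSO, 326 and 323 with vemurafenib and 478 and 410 with PLX7904, and it passed only against PLX7904 (adjusted p = 0.0485). Foxm1, the transcription factor of this programme, was the dimmest of the 42, with 263 in DMSO, 217 and 229 with vemurafenib and 294 and 272 with PLX7904. Its vemurafenib arrays were the lowest, but it passed in neither comparison (adjusted p = 0.459 and 0.167).

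Of the 5 mitotic kinases and their activator, 1 fell against DMSO (Nek2) and 4 against PLX7904, with medians of -0.29 and -0.43. Nek2, a kinase that separates the centrosomes, read 2148 with DMSO, 1572 and 1683 with vemurafenib and 2325 and 2282 with PLX7904, a 1.32-fold (adjusted p = 0.028) and 1.42-fold (adjusted p = 0.00301) decrease. Plk1, the polo kinase of centrosome maturation and entry, read 755 with DMSO, 574 and 638 with vemurafenib and 875 and 797 with PLX7904. The groups did not overlap, yet the log2 change of -0.32 (SE 0.13) against DMSO missed the threshold (adjusted p = 0.162), while that of -0.46 (SE 0.11) against PLX7904 passed (adjusted p = 0.0189). Tpx2, which activates Aurora A at the spindle, read 1426 with DMSO, 1220 and 1308 with vemurafenib and 1665 and 1673 with PLX7904. Both PLX7904 arrays were above DMSO, and the gene passed against PLX7904 alone (adjusted p = 0.0124). A second, dimmer Tpx2 probe set had both PLX7904 arrays below DMSO: 420 with DMSO, 290 and 240 with vemurafenib, 403 and 389 with PLX7904. In the fit over all probe sets its log2 change was -0.66 against DMSO (limma, adjusted p = 0.0519) and -0.58 against PLX7904 (adjusted p = 0.0342). Melk, a kinase with peak expression in mitosis, gave 1258 in DMSO, 994 and 1061 with vemurafenib and 1394 and 1377 with PLX7904, and it too passed against PLX7904 alone (adjusted p = 0.0105). Aurka, the Aurora kinase of the spindle poles, passed in neither comparison, and 1 vemurafenib array (2456) nearly equalled DMSO (2465).

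All 4 members of the chromosomal passenger complex, which corrects faulty attachments and later directs cytokinesis, fell against PLX7904, and 3 of the 4 fell against DMSO. Aurkb, its kinase, read 1861 with DMSO, 1391 and 1470 with vemurafenib and 1953 and 2005 with PLX7904. It was 1.30-fold lower than in DMSO (adjusted p = 0.0387) and 1.38-fold lower than with PLX7904 (adjusted p = 0.00483). Birc5, or survivin, read 5815 with DMSO, 4670 and 4502 with vemurafenib and 5906 and 5782 with PLX7904. For survivin the DMSO and PLX7904 arrays lay close together, and the decrease was 1.27-fold against either. Incenp, the scaffold, gave 8902 in DMSO, 7420 and 6242 with vemurafenib and 9783 and 9880 with PLX7904, a 1.31-fold (adjusted p = 0.0307) and 1.44-fold (adjusted p = 0.00207) decrease in spite of the gap between the vemurafenib replicates. Cdca8, or borealin, gave 4824 in DMSO, 3627 and 4108 with vemurafenib and 4611 and 4949 with PLX7904, and it passed only against PLX7904 (adjusted p = 0.0293, and 0.0634 against DMSO).

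Of 6 genes for the spindle checkpoint and the APC/C, 3 fell in both comparisons (Bub1, Bub1b and Cdc20), 2 against PLX7904 alone and Ttk in neither, with medians of -0.26 and -0.44. Bub1, a checkpoint kinase at the kinetochore, read 3339 with DMSO, 2408 and 2504 with vemurafenib and 3504 and 3590 with PLX7904, 1.36-fold (adjusted p = 0.011) and 1.44-fold (adjusted p = 0.00114) lower. Bub1b, which encodes BubR1 of the inhibitory checkpoint complex, read 1317 with DMSO, 871 and 835 with vemurafenib and 1351 and 1099 with PLX7904. Its decrease against DMSO was 1.54-fold (interval 1.25 to 1.90, adjusted p = 0.0168), and the PLX7904 replicates were spread more widely than the vemurafenib pair. Cdc20, the APC/C activator on which the checkpoint acts, read 7355 with DMSO, 5102 and 5898 with vemurafenib and 8305 and 8061 with PLX7904. The 5 arrays fell into 3 separate levels, and the decrease was 1.34-fold against DMSO (adjusted p = 0.0175) and 1.49-fold against PLX7904 (adjusted p = 0.000967).

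Mad2l1, Ttk and Ube2c were the genes with the smallest steps between vemurafenib and DMSO apart from Aurka. Mad2l1, the checkpoint protein Mad2, read 5370 with DMSO, 5077 and 4909 with vemurafenib and 6403 and 6499 with PLX7904. It was 1.29-fold lower than with PLX7904 (adjusted p = 0.00422), whose arrays both lay above DMSO. Ube2c, the ubiquitin-conjugating enzyme of the APC/C, gave 10954 in DMSO, 10541 and 10297 with vemurafenib and 12640 and 11968 with PLX7904, and passed against PLX7904 by 1.18-fold (adjusted p = 0.0209). Ttk, the checkpoint kinase Mps1, read 1179 with DMSO, 1201 and 1256 with vemurafenib and 1353 and 1529 with PLX7904. It was the only one of the 42 with a vemurafenib value above DMSO (log2 change 0.06, SE 0.12, adjusted p = 0.792).

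At the kinetochore, 3 of 6 genes fell against DMSO (Nuf2, Cenpe and Cenpf) and 4 against PLX7904 (with Cenpa), with medians of -0.41 and -0.34. Nuf2, a subunit of the Ndc80 complex that grips microtubule ends, read 2305 with DMSO, 1656 and 1544 with vemurafenib and 2067 and 2069 with PLX7904. This was an order not seen in Ccna2 or Cdc20, since the PLX7904 arrays lay below DMSO, and the decrease was 1.44-fold against DMSO (adjusted p = 0.00848) and 1.29-fold against PLX7904 (adjusted p = 0.0137). Its partners in that complex passed in neither comparison, Ndc80 with log2 changes of -0.37 and -0.31 (adjusted p = 0.0944 and 0.0816) and Spc25 with -0.17 and -0.27 (adjusted p = 0.304 and 0.0546). Cenpe, a kinesin that brings chromosomes to the metaphase plate, read 991 with DMSO, 719 and 724 with vemurafenib and 943 and 1082 with PLX7904. Cenpf, a large protein of the outer kinetochore, read 1553 with DMSO, 1019 and 1196 with vemurafenib and 1549 and 1687 with PLX7904. In both genes the DMSO array lay between the PLX7904 replicates, and the decrease against DMSO was 1.37-fold (adjusted p = 0.0459) for Cenpe and 1.41-fold (adjusted p = 0.032) for Cenpf. Cenpa, the histone variant that marks the centromere, gave 4824 in DMSO, 4110 and 4081 with vemurafenib and 5094 and 4891 with PLX7904, a call against PLX7904 alone (1.22-fold, adjusted p = 0.0179).

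Kinesin motors fell almost throughout: 6 of 7 passed in each comparison, with medians of -0.47 and -0.49. Kif11, the motor that pushes the spindle poles apart, read 1466 with DMSO, 674 and 826 with vemurafenib and 1228 and 1312 with PLX7904. Its decrease of 1.96-fold against DMSO (interval 1.59 to 2.42, adjusted p = 0.00192) was the largest of the 42 in that comparison, and against PLX7904 it was 1.70-fold (1.43 to 2.02, adjusted p = 0.00183). The vemurafenib replicates themselves were unequal, though both were far below the other arrays. Kif4, a chromokinesin that works with Prc1 at the midzone, read 769 with DMSO, 522 and 470 with vemurafenib and 735 and 712 with PLX7904, 1.55-fold (adjusted p = 0.0139) and 1.46-fold (adjusted p = 0.00876) lower. Kif2c, which depolymerises microtubules at centromeres, read 2600 with DMSO, 1905 and 1840 with vemurafenib and 2632 and 2586 with PLX7904. With DMSO and PLX7904 at the same level, the decrease of Kif2c was 1.39-fold against each (adjusted p = 0.0104 and 0.00282).

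The kinesins of the central spindle changed by similar amounts. Kif23, the motor of centralspindlin, read 2805 with DMSO, 2133 and 2125 with vemurafenib and 2948 and 2855 with PLX7904, 1.32-fold (adjusted p = 0.0204) and 1.36-fold (adjusted p = 0.00357) lower. Kif20a, which carries the passenger complex to the midzone, read 1619 with DMSO, 1259 and 1162 with vemurafenib and 1694 and 1735 with PLX7904. Kif20b, a motor of late cytokinesis, read 2420 with DMSO, 1767 and 1948 with vemurafenib and 2351 and 2539 with PLX7904. Both were called in both comparisons, with 1.34-fold and 1.30-fold decreases against DMSO (adjusted p = 0.0315 and 0.0429). On the probe set used, Kif22, a chromokinesin, was the exception among the motors. It read 2424 with DMSO, 1477 and 1856 with vemurafenib and 1865 and 2888 with PLX7904. The upper vemurafenib array thus almost met the lower PLX7904 array. The log2 changes of -0.55 (SE 0.21) and -0.49 (SE 0.17) did not pass (adjusted p = 0.136 and 0.098). A second Kif22 probe set read 977 with DMSO, 809 and 709 with vemurafenib and 1034 and 988 with PLX7904. In the fit over all probe sets it was called against PLX7904 (log2 change -0.42, limma, adjusted p = 0.0383) and not against DMSO (-0.37, adjusted p = 0.128).

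The 3 proteins that bind and bundle spindle microtubules fell in both comparisons, with medians of -0.49 and -0.65. Nusap1, which stabilises microtubules near chromosomes, read 2512 with DMSO, 1546 and 1504 with vemurafenib and 2649 and 2595 with PLX7904. Its replicates were tight, and it had the lowest adjusted p of the 42 in both comparisons, 1.65-fold lower than in DMSO (1.42 to 1.90, adjusted p = 0.00128) and 1.72-fold lower than with PLX7904 (1.53 to 1.93, adjusted p = 0.000186). Hmmr, a spindle assembly factor and hyaluronan receptor, read 1133 with DMSO, 812 and 794 with vemurafenib and 1198 and 1325 with PLX7904, 1.41-fold (adjusted p = 0.024) and 1.57-fold (adjusted p = 0.00189) lower. Prc1, which crosslinks the antiparallel microtubules of the midzone, read 1792 with DMSO, 1363 and 1331 with vemurafenib and 1848 and 2003 with PLX7904. The vemurafenib arrays of Prc1 were again the lowest, 1.33-fold (adjusted p = 0.0313) and 1.43-fold (adjusted p = 0.00354) below DMSO and PLX7904.

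Of the 3 genes of the cleavage furrow, 1 fell against DMSO and 2 against PLX7904. Ect2, the exchange factor that turns on RhoA at the furrow, read 3146 with DMSO, 2242 and 2264 with vemurafenib and 2327 and 2993 with PLX7904. The lower PLX7904 array thus lay near the vemurafenib pair, and Ect2 was the only gene called against DMSO (1.40-fold, adjusted p = 0.0452) but not against PLX7904 (adjusted p = 0.208). Anln, or anillin, the actin-binding scaffold of the ring, read 6873 with DMSO, 5691 and 5421 with vemurafenib and 6404 and 8352 with PLX7904. Racgap1, which forms centralspindlin with Kif23, read 1738 with DMSO, 1503 and 1350 with vemurafenib and 1849 and 1715 with PLX7904. Anln and Racgap1 passed against PLX7904 (adjusted p = 0.032 and 0.0416) and not against DMSO (adjusted p = 0.162 and 0.136).

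The markers of proliferating cells fell as well. Mki67, the Ki-67 protein that coats mitotic chromosomes, read 2449 with DMSO, 1714 and 1662 with vemurafenib and 2565 and 2761 with PLX7904. It was 1.45-fold lower than in DMSO (1.25 to 1.69, adjusted p = 0.00727) and 1.58-fold lower than with PLX7904 (1.39 to 1.78, adjusted p = 0.000633), with no overlap of the arrays. Top2a, the topoisomerase that untangles sister chromatids, read 7202 with DMSO, 5994 and 5904 with vemurafenib and 8326 and 7781 with PLX7904. Its PLX7904 arrays were both above DMSO, and its decrease was 1.21-fold against DMSO (adjusted p = 0.0478) and 1.35-fold against PLX7904 (adjusted p = 0.00172).

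**Figure D3:**
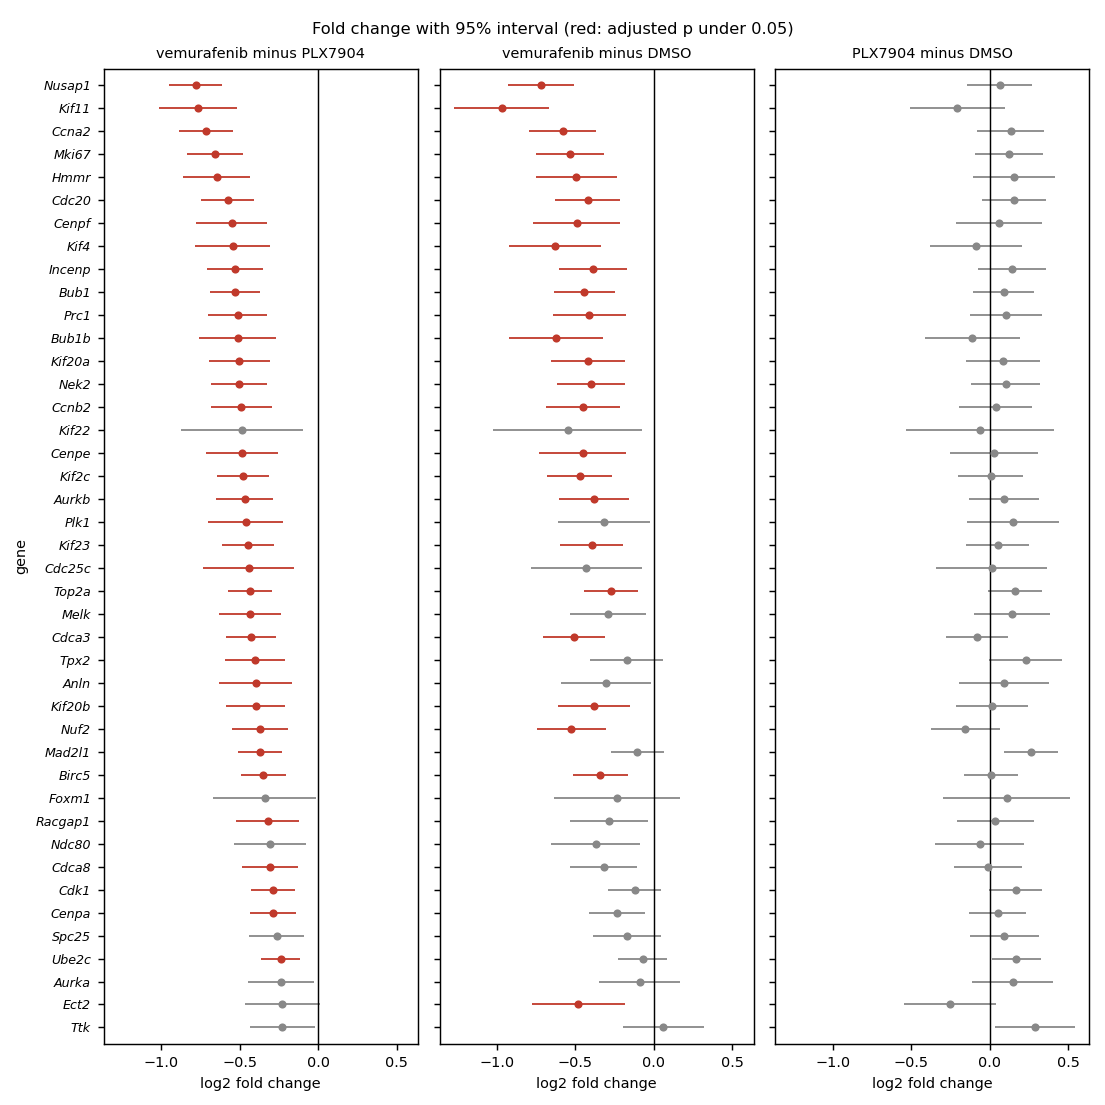
Log2 fold change (x axis) of each of the 42 genes (y axis) in the 3 comparisons, 1 panel each, as a point with its 95% interval from the fit, red where the adjusted p was under 0.05. Red points number 25 for vemurafenib minus DMSO and 35 for vemurafenib minus PLX7904, with none for PLX7904 minus DMSO, and all red points lie below 0.

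Across the 42, then, 24 genes passed against both DMSO and PLX7904, 11 against PLX7904 alone, Ect2 against DMSO alone and 6 in neither comparison (Foxm1, Aurka, Ttk, Ndc80, Spc25 and Kif22). The comparisons share the vemurafenib arrays, so these counts are not independent of each other. The size of change had little relation to brightness: over the 42 genes the log2 mean signal and the log2 change had a Pearson r of 0.268 against DMSO (Spearman's rho 0.273) and 0.180 against PLX7904, a description over genes that share the same arrays.

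Between PLX7904 and DMSO no change of these genes was called. None of the 42 passed in either direction (smallest adjusted p 0.493), as none of all genes tested did (0%; smallest adjusted p 0.0563). At an unadjusted p under 0.05 there were 722 of all genes and 3 of the 42, Mad2l1 (1.2-fold, 95% interval 1.07 to 1.35), Ttk (1.22-fold, 1.02 to 1.46) and Ube2c (1.12-fold, 1.01 to 1.25), all with higher values under PLX7904. Of all genes, limma called 1 higher and 2 lower with robust fitting, 14 and 15 without vemurafenib replicate 1 and 12 and 15 without replicate 2, with none of the 42 among them. The log2 differences of the 42 ran from -0.25 (Ect2) to 0.29 (Ttk) with a median of 0.08, and 33 were above 0, where the median over all genes was -0.01. Both PLX7904 arrays read above the DMSO array for 24 of the 42 genes, against 30.8% of all genes tested. For Mki67 the interval of the ratio ran from 0.935 to 1.26, and a small shift in either direction therefore could not be told from none.

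In the comparisons of vemurafenib, other probe sets of the same genes mostly gave the same direction. The 42 genes had 98 probe sets, of which 83 passed the filter, and 13 genes had just 1. Against PLX7904, 83 of 83 had a negative change and 47 were called lower, where 4.54% of 19755 probe sets were called lower. Against DMSO, 81 of 83 were negative and 28 called, where the share over all probe sets was 3.41%, and 11670 of the 19755 were negative. These counts take in the 42 probe sets used above. Of the other 41, 41 were negative and 14 called lower against PLX7904. Against DMSO, 40 of these 41 were negative and 8 called lower. The probe sets were fitted anew, with p-values adjusted over all 19755. Both the fit and the adjustment thus differ, and some probe sets called over genes are not called here, the one used for Racgap1 among them. Calls were less even than directions: of the 26 genes with several tested probe sets, 16 had probe sets that disagreed in their call against DMSO and 15 against PLX7904. A second Racgap1 probe set read 1413 with DMSO, 756 and 790 with vemurafenib and 1344 and 1405 with PLX7904, a log2 change of -0.87 against DMSO beside -0.29 for the brighter one. A second, dimmer Anln probe set likewise gave -0.90 beside -0.31. The positive exception besides Ttk was the dimmest probe set of Kif11, with 160 in DMSO, 294 and 140 with vemurafenib and 205 and 400 with PLX7904. Its replicates were further apart than its groups (log2 change 0.34, SE 0.44), while the other unused Kif11 probe set gave -0.75 against DMSO. Of the 42 probe sets used, 22 carried the suffix a, s or x, which the array's maker gives to probe sets that can match several transcripts.

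**Figure D4:**
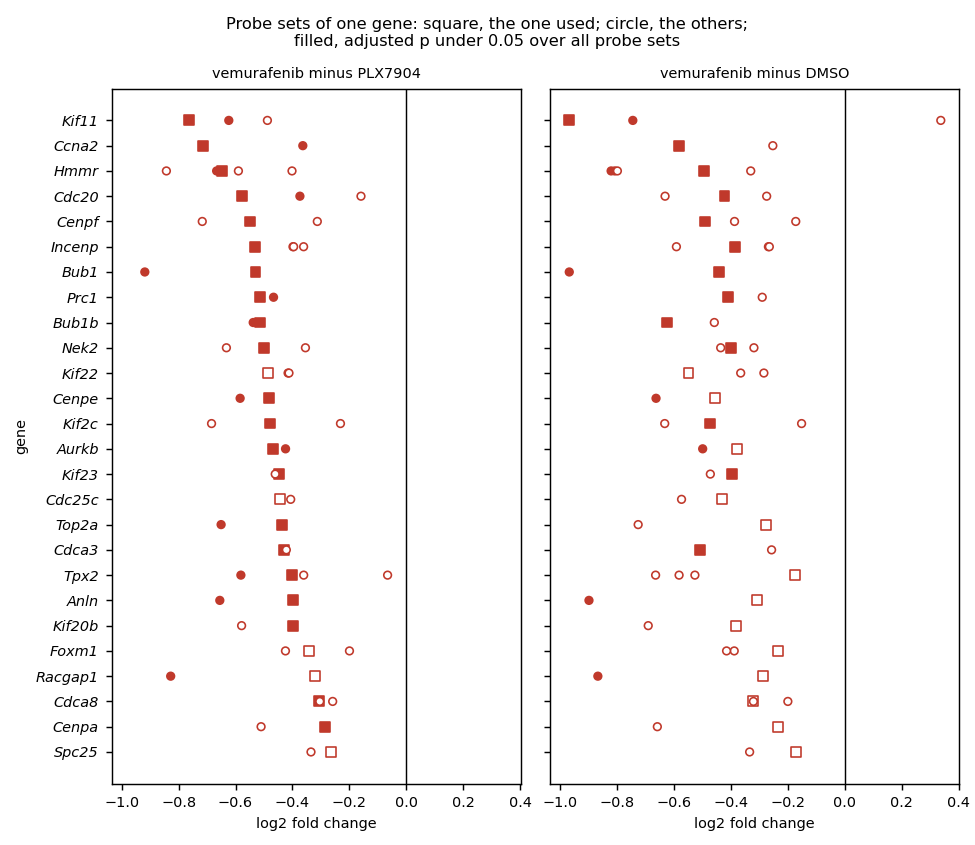
Log2 fold change (x axis) of every tested probe set of the 26 genes with more than 1 (y axis), for vemurafenib minus PLX7904 and vemurafenib minus DMSO; squares are the probe sets used, circles the others, and filled symbols have an adjusted p under 0.05 over all 19755 probe sets. All symbols lie left of 0 except 1 Kif11 probe set in the comparison with DMSO.

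A wider list of 78 other mitosis genes, outside the 42, changed in the same direction, though its members were also named with earlier results known. Of the 73 that were tested, 29 fell against DMSO and 49 against PLX7904 and none rose (limma; 1 and 0 genes above 0 at an unadjusted p under 0.05), with medians of -0.43 and -0.46. The lowest changes against DMSO were those of Cenpn (-1.08), Cit (-0.99), Cenpm (-0.99) and Depdc1a (-0.92), genes for centromere proteins, citron kinase of the midbody and a protein of mitotic progression. Against PLX7904 they were those of Cenpm (-1.07), Ckap2l (-0.88), Aspm (-0.80) and Pbk (-0.74), which include spindle pole proteins and a mitotic kinase. The smallest called changes were those of the kinetochore genes Cenpq (-0.38) and Zwilch (-0.38), the condensin subunit Smc4 (-0.41) and Arhgap11a (-0.42) against DMSO, and of Cks2 (-0.22), Hmgb2 (-0.30), Trip13 (-0.30) and Ska2 (-0.30) against PLX7904. Ccnb1 had no probe set of a single symbol, and Kif14, Kif15 and Psrc1 lay under the filter.

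The factors that run this programme were mostly not called. The list named genes for DREAM, MuvB, E2F and NF-Y proteins, and Trp53. Of its 20 tested genes, 2 fell against DMSO and 5 against PLX7904 and none rose (limma; 2 and 1 above 0 at an unadjusted p under 0.05), with medians of -0.12 and -0.13. Rbl1, the pocket protein p107, read 1863 with DMSO, 1227 and 1310 with vemurafenib and 1847 and 2183 with PLX7904, a log2 change of -0.55 (adjusted p = 0.0168) and -0.66 (adjusted p = 0.00198). Mybl2, which encodes B-Myb, changed by -0.52 (adjusted p = 0.048) and -0.41 (adjusted p = 0.045). Mybl1, E2f1 and Lin54 passed against PLX7904 alone, with -0.81, -0.52 and -0.50. Other subunits and partners of the APC/C, the ligase that Cdc20 activates, gave 0 calls of 16 against DMSO (limma; 1 at an unadjusted p under 0.05) and 1 against PLX7904 (Anapc13, log2 change -0.31). The smallest p against DMSO belonged to Cdc23 (log2 change -0.30) and Anapc1 (0.21).

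**Figure D5:**
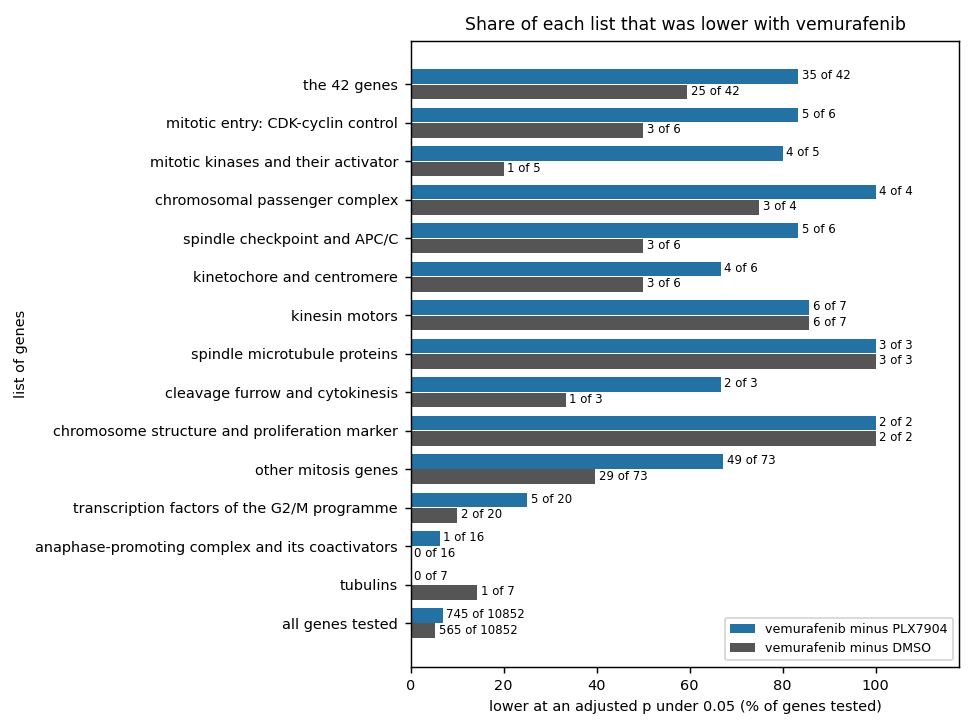
Share of each list called lower with vemurafenib, in percent of its tested genes (x axis), for the 42 genes, their 9 roles, the related lists and all genes tested (y axis); bars are 1 comparison each, labelled with the count. Bars of the 42 genes reach 83.3% against PLX7904 and 59.5% against DMSO, beside 6.87% and 5.21% of all genes tested.

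The arrays fitted their label. All 9 measured keratinocyte and epithelial markers passed the filter, with means from 3147 to 21753, and of markers of fibroblasts, immune cells, endothelium and melanocytes at most 2 of a list did, none above a mean of 155. The summed signal of the epithelial markers was 91682 in DMSO, 108499 to 110289 with vemurafenib and 96630 to 99624 with PLX7904. The median change of all genes against DMSO also rose with brightness, from -0.18 over the dimmest 2713 genes to 0.05 over the brightest 2713, which held 25 of the 42. The dim markers of other cells moved as well: the summed fibroblast markers were 168 in DMSO, 390 to 432 with vemurafenib and 197 to 265 with PLX7904. Pdgfra, the 1 fibroblast marker past the filter, was 2.89-fold higher than in DMSO (adjusted p = 0.00327), and Pmel of melanocytes 5.57-fold (adjusted p = 0.00938). Pmel read only 12.4 on the DMSO array, and with PLX7904 it was 4.43-fold higher (limma, adjusted p = 0.331). Mitf, the other melanocyte marker past the filter, went down against DMSO (log2 change -0.60, limma, adjusted p = 0.348). The summed endothelial markers were 193 in DMSO, 79 to 128 with vemurafenib and 85 to 217 with PLX7904. Immune and melanocyte sums were above DMSO with both compounds. The part of these in the changes above was not tested.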

How the data were processed

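The authors deposited MAS5 signals, which are linear intensity values per probe set, for 5 arrays and 45101 probe sets; MAS5 is named in the submitters' processing notes. The values showed that each array had been scaled to a mean of 500 over its middle 96% of values, while array medians ran from 44.1 to 51.9. Detection calls were not used here. Symbols came from GEO's platform annotation: 34945 probe sets had 1 symbol, 932 several and 9160 none, and 64 were controls. Signals were turned into log2(signal + 3.34), the pseudocount being the 10th percentile, and genes under a mean signal of 47.4 (the median over the whole table) were left out. A fold change on this scale understates that of dim genes. Group means of all 5 arrays were fitted with limma 3.58.1 in R 4.3.3 (eBayes with an intensity trend, 2 residual and 8.27 prior degrees of freedom), tests were two-sided, with Benjamini-Hochberg adjustment over 10852 genes in each of 3 comparisons. SEs and 95% intervals are from this fit. It was also run on simulated arrays with independent noise whose spread followed the signal. Because the intensity trend assumes the same, that run could not check the assumption.

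The main probe set of a gene was its brightest. All 42 genes are named; array signals are given for called genes, for genes whose probe sets disagree and for a few central ones, and from each related list the 4 lowest and 4 highest called genes, or the 2 with the smallest p. The genes and lists were chosen with earlier results of these data known, so list counts are descriptions and no list was tested as a set. Replicate arrays had a Pearson r of 0.990 (vemurafenib) and 0.989 (PLX7904) over the tested genes. Same-numbered arrays did not deviate together (correlation -0.00711), so the numbers were not taken as pairs. Other pseudocounts, filters, scalings, probe set rules, spread models and thresholds, a replicate block and the omission of each treated array were tried. Trp53 was named in the list of factors that run the G2/M programme, and its values are not reported here.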

Additional observations from a re-analysis of the deposited data

How the results depend on the processing

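With no filter on signal, 15 of the 42 genes were lower than in DMSO in place of 25. Median centring left 7, a model without intensity trend 0, the mean of all probe sets 9, probe sets without the suffix x, s or a 13 of 33 measured, and an adjusted p under 0.01 left 6. Leaving out 1 treated array at a time gave 15 to 29. Against PLX7904 the 35 genes became 0 without the trend, 23 with the mean of probe sets, 22 of 33 without the suffixes and 21 under 0.01. Of the other mitosis genes, the 29 lower than in DMSO became 14 with centring, 0 without the trend, 18 with the mean of probe sets, 12 under 0.01 and 46 under 0.1, and the 49 lower than with PLX7904 became 32, 0, 30 and 26 in the first 4 of these settings. The median log2 change against DMSO was -0.24 with centring, -0.45 with the mean of probe sets and -0.37 without the suffixes, and -0.42 to -0.38 with 1 array left out. Against PLX7904 it was -0.35 with centring, -0.43 without the suffixes and -0.45 to -0.42 with 1 array left out. The median of PLX7904 minus DMSO was 0.073 with quantile normalization, 0.15 with centring, 0.015 with the mean of probe sets and 0.071 to 0.085 with 1 array left out. Signs of called genes turned for Nek2 against DMSO with the mean of its probe sets (0.22), which takes in 1 under the filter, and for the dimmest Kif11 probe set (0.34), and those of 4 uncalled genes turned with centring. With the replicate number as a block, 25 genes were lower than in DMSO and 36 lower than with PLX7904. The next counts use the 0.05 threshold and leave out the model without trend. Against DMSO, 4 of the 42 genes (Ccna2, Kif4, Mki67 and Nuf2) were called in every alternative that measured them. Against PLX7904, 13 were. Nuf2, Aurkb, Birc5, Kif20a and Prc1 had no probe set free of the suffixes. Single other probe sets were not among these alternatives, and the second Ccna2 probe set was not called against DMSO (limma, adjusted p = 0.131). The causes of these differences were not tested.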

Other observations

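Tubulins, the building blocks of the spindle that also make up the microtubules of cells between divisions, did not follow the mitosis genes. Of 7 tested, 2 rose and 1 fell against DMSO, and 4 rose and none fell against PLX7904 (limma, adjusted p under 0.05; 1 below 0 at an unadjusted p under 0.05). Tuba1a read 20588 with DMSO, 25131 and 25644 with vemurafenib and 21342 and 22296 with PLX7904, a log2 change of 0.30 (SE 0.06, adjusted p = 0.0115) against DMSO. Both vemurafenib arrays were the highest, the reverse of the order in the 42 genes. Tubb6 read 7052 with DMSO, 9041 and 9057 with vemurafenib and 7304 and 7028 with PLX7904, a log2 change of 0.36 (SE 0.07, adjusted p = 0.0117). Tubb3 and Tubb2a passed against PLX7904 alone, with log2 changes of 0.45 and 0.46. Tubg1, which encodes the gamma-tubulin of centrosomes, was the gene that fell against DMSO (log2 change -0.40, adjusted p = 0.047), with 1635 in DMSO, 1204 and 1272 with vemurafenib and 1506 and 1362 with PLX7904.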
